A study of Mus musculus with 11 samples.

Results

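Expression of 10 genes of fat cells and of fatty acid synthesis was followed in mammary glands carrying PN1a or PN1b lesions. The genes are Lpl, Thrsp, Acly, Fasn, Scd1, Fabp4, Adipoq, Cfd, Pparg and Lep, and every probe set annotated to a single one of them was taken. The array carried 13 such probe sets for 9 of the 10 genes, out of 12422 probe sets tested and 8251 genes with a probe set of 1 symbol, and no probe set was matched to Cfd. PN1a and PN1b are premalignant lines of Trp53-/- mammary epithelium from Balb/c mice that arose as outgrowths in opposite glands of 1 mouse and were kept by serial transplantation. Tissue of either line was grown in the cleared mammary fat pads of young wild-type Balb/c females, and RNA was taken from glands bearing PN1a (5 samples) or PN1b (6 samples) lesions at 8 weeks post-transplantation. Each sample was hybridized to 1 Affymetrix MG_U74Av2 array. Both groups therefore share the p53-null epithelium and the wild-type host, whose fat pad, vessels and immune cells are part of the gland. Each line stems from 1 outgrowth, so a difference between the groups is a difference between 2 lines.

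The mammary fat pad consists largely of white adipocytes, in which the epithelial tree is embedded. Lipid reaches these cells along separate routes. Lipoprotein lipase (Lpl) frees fatty acids from circulating triglyceride, and in the synthetic route ATP citrate lyase (Acly) supplies cytosolic acetyl-CoA, fatty acid synthase (Fasn) builds palmitate and stearoyl-CoA desaturase (Scd1) introduces a double bond. Thrsp, also called Spot 14, is a nuclear protein of lipogenic tissues that responds to thyroid hormone and diet. Mammary epithelium also expresses Lpl, Acly, Fasn, Scd1 and Thrsp, above all in lactation, whereas Fabp4 (a fatty acid carrier), Adipoq (adiponectin), Cfd (adipsin), Pparg (the nuclear receptor that drives adipogenesis) and Lep (leptin) are used as genes of the adipocyte itself.

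Deposited intensities are on a linear scale on which the lowest value is 1 and the sample medians lay between 8.57 and 9.51. All levels below are log2 of these values, differences are PN1a minus PN1b, and a call means an adjusted p under 0.05 in limma (two-sided, Benjamini-Hochberg over the whole array) together with a fold change of at least 1.5. The sources do not state that the samples of a group came from separate mice, so the p-values refer to the spread among these arrays alone, whose number sets the precision. Some features of the samples bear on the members. First, the sample labels carry 1 of 3 endings whose meaning is not given. All 5 PN1a samples share an ending with PN1b 5 and PN1b 6, while PN1b 1 to 4 carry the others and have titles written as number ranges, which may stand for pooled glands. Second, PN1a 1 and PN1a 2, titled by numbers, stood apart in part of the RNA measures, with 18S control intensities (5′ probe set) of 195 and 276 against 5.39 to 17.6 in the other 9 samples. In the same pair, the Gapdh 3′ to 5′ ratios were 0.829 and 0.883, against 1.25 to 5.21 in the others, where PN1a 5 at 4.17 and PN1b 6 at 5.21 were the highest. The beta-actin 3′ to 5′ ratios did not set the pair apart, at 1.366 and 1.495, within the 1.32 to 4.823 of the others.

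Promoters of 3 members from the synthetic route, Thrsp, Acly and Fasn, are shown, a choice made after their values were seen. Whether the letters near their start sites bear on the differences between PN1a and PN1b was not tested. Each line gives the 250 bases before the start in RefSeq (GRCm38.p6), 5′ to 3′ along the gene, with CCAAT and GGGCGG on either strand in capitals. All 3 genes lie on the minus strand, Thrsp at chr7:97417551-97417800, Acly at chr11:100528001-100528250 and Fasn at chr11:120824548-120824797.
Thrsp: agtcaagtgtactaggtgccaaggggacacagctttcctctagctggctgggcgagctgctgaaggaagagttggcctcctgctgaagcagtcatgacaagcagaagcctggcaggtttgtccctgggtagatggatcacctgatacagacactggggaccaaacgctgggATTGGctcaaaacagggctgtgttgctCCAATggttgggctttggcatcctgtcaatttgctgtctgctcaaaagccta
Acly: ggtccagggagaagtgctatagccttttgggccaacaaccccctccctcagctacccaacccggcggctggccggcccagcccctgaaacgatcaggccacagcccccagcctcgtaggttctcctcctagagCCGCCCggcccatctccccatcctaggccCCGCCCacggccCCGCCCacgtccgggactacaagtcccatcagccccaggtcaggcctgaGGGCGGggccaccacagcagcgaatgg
Fasn: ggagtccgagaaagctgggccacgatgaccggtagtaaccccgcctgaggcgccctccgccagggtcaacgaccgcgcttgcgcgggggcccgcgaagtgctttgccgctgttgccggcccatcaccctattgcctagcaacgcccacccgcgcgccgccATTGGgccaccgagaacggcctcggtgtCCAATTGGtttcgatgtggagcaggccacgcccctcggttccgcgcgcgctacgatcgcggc
The Thrsp window held the letters CCAAT, bound by the factor NF-Y, at 2 places, whose first bases lay 79 and 52 bases before the start. In the Fasn window it occurred at 3 places, 90, 62 and 59 bases before the start, the last pair overlapping by 2 bases. Acly had none, and instead held GGGCGG, the GC box bound by Sp1-type factors, at 4 places, 117, 88, 76 and 27 bases before the start. Such letters are common, since on either strand CCAAT was found in 33.8% and GGGCGG in 32.7% of all 32851 windows of this length in the table. AGGTCA, part of the sites of many nuclear receptors and present in 14.02% of windows, was found once, in Acly at 40 bases before the start. Neither TATAAA (12.4% of windows) nor CACGTG (6.02% of windows) was found in these 3 windows. A match is a string of letters and was not tested as a binding site. The table had an entry for 7 of the 10 genes, and Lpl, Scd1 and Fabp4 were not matched.

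The question for each member was whether its RNA differed between glands with PN1a and with PN1b lesions. Lpl, Thrsp and Acly were lower in PN1a, by 3.51-fold, 2.51-fold and 1.99-fold, and no member was called higher. Fasn ran the other way without passing the test, and Scd1, Fabp4, Adipoq, Pparg and Lep were not called. Of the 13 member probe sets 3 were called lower, beside 1.62% of all probe sets tested, and 0 were called higher, beside 0.869% (2.49% in either direction). The members were chosen with earlier results of these data known, so the shares and medians given here are a description and not a test. At an unadjusted p under 0.05 the count was 5 of 13, beside 18.9% of all probe sets. Besides the 3 called lower, these were Fasn (0.45) and the dimmer Lep probe set (98444_g_at, 0.52), whose differences were above 0. The median difference over the 9 genes, each by its brightest probe set, was -0.39, against -0.03 over all 8251 genes. In 2 member probe sets, those of Lpl and Acly, every PN1a sample lay below every PN1b sample, which held for 2.38% of all probe sets, and in 0 did every PN1a sample lie above, against 1.58%. RNA of a whole gland was measured, so fewer cells of a type and less RNA per cell cannot be told apart.

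**Figure D1:**
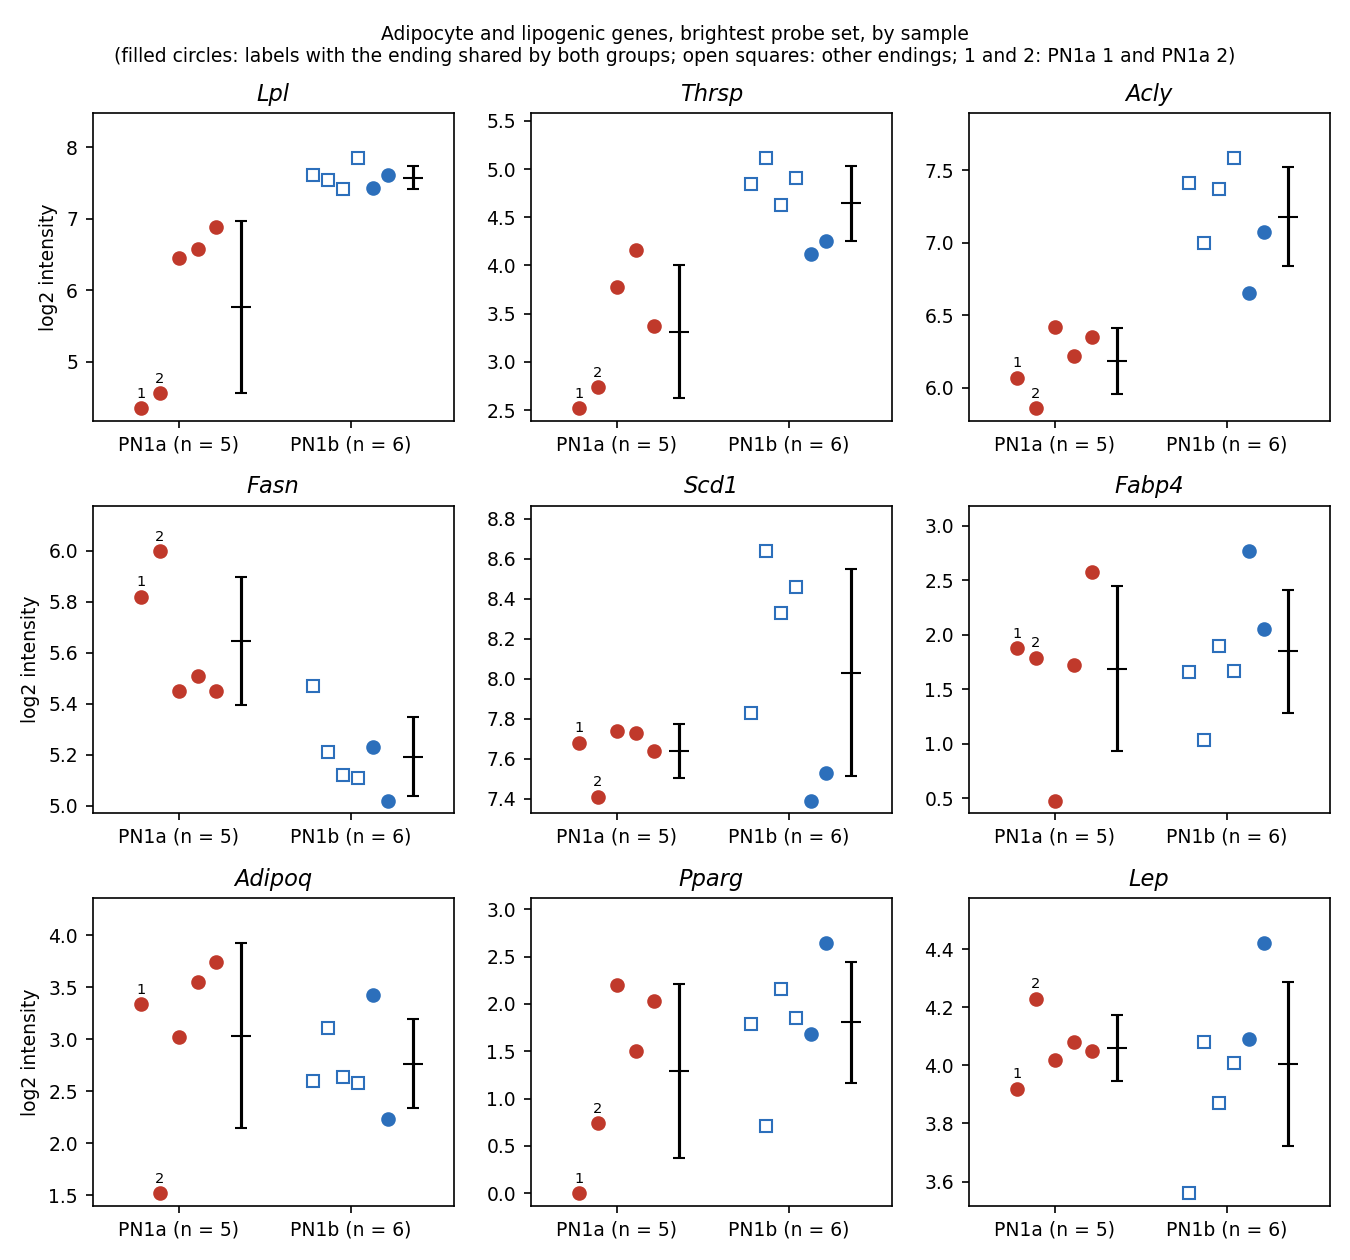
Log2 intensity of the 9 measured genes in each sample (brightest probe set per gene), for PN1a (red) and PN1b (blue), with the mean and SD in black. Filled circles are samples whose labels share the ending found in both groups, open squares are PN1b 1 to 4, and small digits mark PN1a 1 and PN1a 2. Lpl and Acly separate the groups, and the other 7 panels overlap.

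Lpl, the enzyme that releases fatty acids from lipoproteins at the vessel wall, gave the largest difference among the members by its brighter probe set. By this probe set (95611_at), the log2 level in PN1a was 4.35, 4.56, 6.45, 6.57 and 6.88 in samples 1 to 5. In PN1b it was 7.41 at the lowest, 7.58 at the median and 7.84 at the highest. The groups did not overlap, and the gap within PN1a between samples 1 and 2 and the other 3 was wider than the whole range of PN1b. The difference was -1.81 (SE 0.43, 95% confidence interval -2.73 to -0.89, limma adjusted p = 0.0415). PN1a varied far more than PN1b, with an SD of 1.21 (n = 5) against 0.16 (n = 6). The former was larger than that of 96.7% of all probe sets in PN1a, and the latter larger than that of 4.93% in PN1b. Without PN1a 1 and PN1a 2 the difference was -0.94 and remained called (limma adjusted p = 0.0307). A second, dimmer probe set (160083_at) ran from 0.65 to 2.71 in PN1a and from 1.48 to 3.68 in PN1b, and was not called (-0.66, SE 0.43, limma adjusted p = 0.439). With the mean of both probe sets as the value of the gene, the call was lost at -1.24 (limma adjusted p = 0.0920), a smaller difference than that of Thrsp.

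Thrsp, which in rodents rises with feeding and thyroid hormone, followed the same order of groups. The log2 level was 2.52, 2.74, 3.78, 4.16 and 3.37 in PN1a 1 to 5. PN1b had 4.12 at the lowest, 4.74 at the median and 5.11 at the highest. The groups overlapped at 1 pair, since PN1a 4 lay above PN1b 5, and again PN1a 1 and PN1a 2 were the lowest. The difference was -1.33 (SE 0.30, 95% confidence interval -1.98 to -0.68, limma adjusted p = 0.0374). Its size was -0.87 both without PN1a 1 and PN1a 2 (limma adjusted p = 0.146) and among samples sharing the label ending (limma adjusted p = 0.684). With 16 added to every intensity the difference was -0.64 and stayed called (limma adjusted p = 0.0344).

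Acly, the first step from citrate toward cytosolic fatty acid and sterol synthesis, had the smallest standard error of the 3 called genes. Its log2 levels in PN1a 1 to 5 were 6.07, 5.86, 6.42, 6.22 and 6.35, with an SD of 0.23. The PN1b samples had 6.65 at the lowest, 7.22 at the median and 7.58 at the highest. All PN1a samples lay below all PN1b samples, and the narrowest gap was between PN1a 3 and PN1b 5. The difference was -0.996 (SE 0.20, 95% confidence interval -1.43 to -0.56, limma adjusted p = 0.0231). Here PN1a 1 and PN1a 2 were again the lowest, at 5.86 to 6.07 against 6.22 to 6.42 in PN1a 3 to 5, and without them the difference was -0.85 and not called (limma adjusted p = 0.0992).

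The 3 calls changed with the samples used and with the label ending. With each sample left out in turn, Lpl stayed called only without PN1a 4, PN1a 5 or PN1b 5, and Thrsp only without PN1a 4, PN1b 5 or PN1b 6. Acly lost its call without PN1a 1, PN1b 1, PN1b 3 or PN1b 4. The limma adjusted p of the lost calls was 0.0547 to 0.0971 for Lpl, 0.0508 to 0.0909 for Thrsp and 0.0507 to 0.0647 for Acly, and every difference stayed below 0. Among the 7 samples sharing an ending (5 PN1a, PN1b 5 and PN1b 6) the differences were -1.76 for Lpl, -0.87 for Thrsp and -0.68 for Acly. None of the 3 was called there, where 18 of all probe sets were, nor with the ending as a fixed block.

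**Figure D2:**
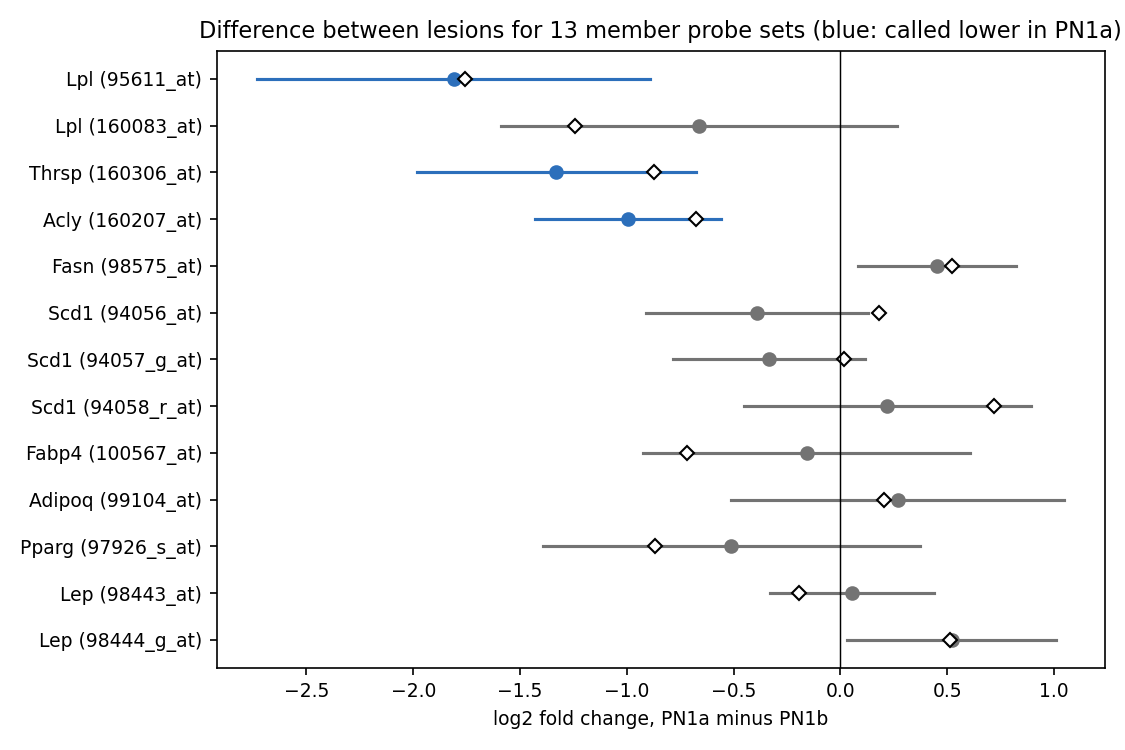
Difference in log2 intensity, PN1a minus PN1b, for the 13 member probe sets, with the 95% confidence interval from limma as a line. Blue marks the 3 called lower in PN1a, grey those not called, and open diamonds give the difference within the 7 samples that share a label ending. The Lpl diamond of 95611_at, at -1.76, lies next to its value from all samples, while those of Thrsp (-0.87) and Acly (-0.68) lie nearer to 0.

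The PN1b samples with and without the shared ending differed in level for part of the members, in either direction. Thrsp was 4.12 to 4.25 in PN1b 5 and PN1b 6 and 4.63 to 5.11 in PN1b 1 to 4. For Acly these ranges were 6.65 to 7.07 and 7.0 to 7.58, with PN1b 6 above PN1b 2. Lpl did not differ in this way, with 7.43 to 7.61 in PN1b 5 and PN1b 6 inside the range of 7.41 to 7.84 in PN1b 1 to 4. Fabp4 ran the other way, at 2.05 to 2.77 in PN1b 5 and PN1b 6 and 1.04 to 1.9 in PN1b 1 to 4. Its intensities there were only 2.06 to 6.82, below the median of every sample. Lep (98443_at) also ran the other way, at 4.09 to 4.42 and 3.56 to 4.08. The part of the ending, of possible pooling and of the title form in these differences was not tested.

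Fasn, the enzyme that makes palmitate from the acetyl-CoA that Acly provides, was not called, and its difference had the opposite sign. The log2 level was 5.82, 6.00, 5.45, 5.51 and 5.45 in PN1a 1 to 5. In PN1b it was 5.02 at the lowest, 5.17 at the median and 5.47 at the highest. The groups overlapped only through PN1b 1, which lay above PN1a 3 and PN1a 5, and PN1a 1 and PN1a 2 were the highest of all 11 samples. The difference was 0.45 (SE 0.17, 95% confidence interval 0.08 to 0.82, limma adjusted p = 0.173), and without PN1a 1 and PN1a 2 it was 0.28 (limma adjusted p = 0.469). In this pair of samples, then, Fasn was highest and Lpl, Thrsp and Acly were lowest.

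**Figure D3:**
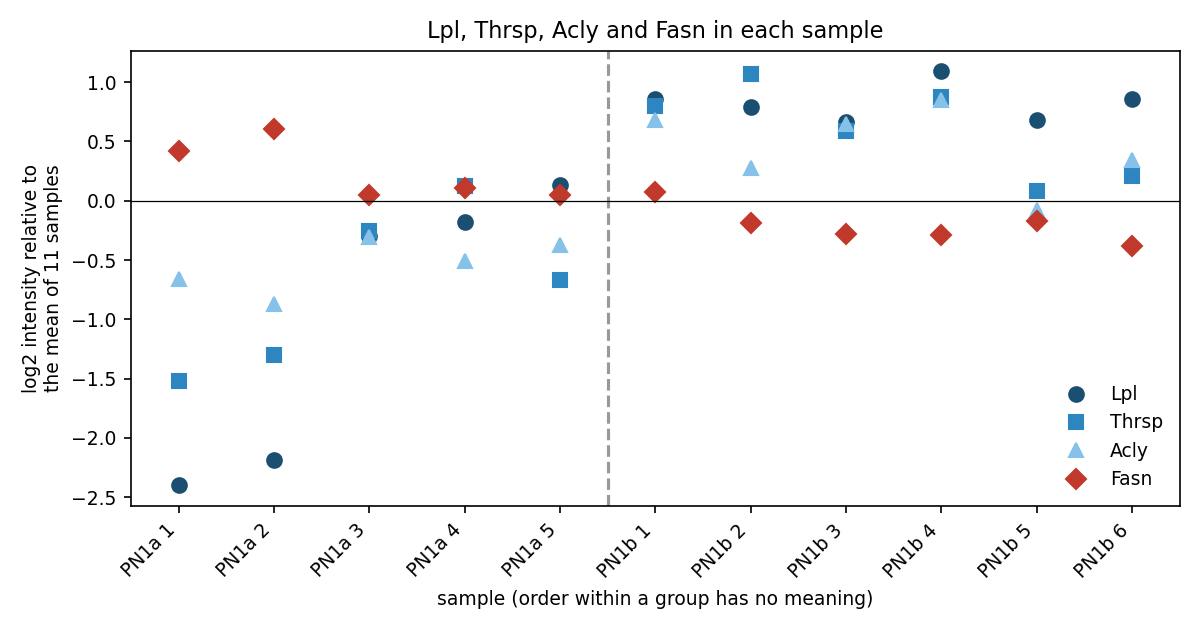
Log2 intensity of Lpl, Thrsp, Acly and Fasn (brightest probe set) in each sample, relative to the mean of the 11 samples for that gene, with the groups separated by a dashed line. PN1a 1 and PN1a 2 hold the lowest values of Lpl, Thrsp and Acly and the highest of Fasn.

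Scd1, which desaturates the products of Fasn, was not called, and its PN1b samples spread more widely than its PN1a samples. By the brightest of its 3 probe sets (94056_at) the level was 7.68, 7.41, 7.74, 7.73 and 7.64 in PN1a 1 to 5. PN1b ranged from 7.39 through a median of 8.08 to 8.64, with PN1b 5 and PN1b 6 at 7.39 and 7.53 and PN1b 1 to 4 at 7.83 to 8.64. The PN1a samples thus lay at the level of PN1b 5 and PN1b 6 and below PN1b 1 to 4. The difference was -0.39 (95% confidence interval -0.91 to 0.13, limma adjusted p = 0.415) over all samples and 0.18 within the shared ending. Of its other probe sets, 94057_g_at gave -0.33 and 94058_r_at 0.22, neither of them called (limma adjusted p = 0.418 and 0.751).

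The genes most particular to adipocytes were not called, and Fabp4 and Pparg lay below the median intensity of every sample. Fabp4, the fatty acid carrier of the adipocyte cytosol, gave log2 levels of 1.88, 1.79, 0.48, 1.72 and 2.58 in PN1a 1 to 5 and of 1.04 to 2.77 in PN1b, intensities of only 1.39 to 6.82. Its difference was -0.16 (95% confidence interval -0.93 to 0.61, limma adjusted p = 0.849). Within the shared ending it was -0.72 (limma adjusted p = 0.744). Fabp4 RNA is known to be abundant in adipose tissue. Adipoq, the adipocyte hormone that raises insulin sensitivity, lay at 3.34, 1.52, 3.02, 3.55 and 3.74 in PN1a 1 to 5, and between 2.23 and 3.43 in PN1b. PN1a 2 was the lowest sample, and the difference was 0.27 (95% confidence interval -0.51 to 1.05, limma adjusted p = 0.739). Without PN1a 1 and PN1a 2 it was 0.67 (limma adjusted p = 0.266).

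Pparg, the nuclear receptor required for fat cell formation, had levels of 0.74, 2.2, 1.5 and 2.03 in PN1a 2 to 5, with PN1a 1 at the lowest value of the table. PN1b ran from 0.71 to 2.64. The difference was -0.51 (95% confidence interval -1.39 to 0.37, limma adjusted p = 0.543), and -0.87 within the shared ending (limma adjusted p = 0.739). Lep, the hormone that reports fat stores to the brain, lay at 3.92 to 4.23 in PN1a and 3.56 to 4.42 in PN1b by its brighter probe set (98443_at), with a difference of 0.06 (95% confidence interval -0.33 to 0.44, limma adjusted p = 0.901). The dimmer one (98444_g_at), with intensities of 1 to 2.28, gave 0.52 (limma adjusted p = 0.233), and without PN1a 1 and PN1a 2 it was called at 0.86 (limma adjusted p = 0.0373). With 16 added to every intensity its difference was 0.05 (limma adjusted p = 0.492). The intervals of Fasn, Scd1, Fabp4, Adipoq and Pparg hold changes of 1.5-fold in at least 1 direction, so an absence of change was not shown.

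Other adipocyte markers were read beside the members. Of 19 measured genes outside the members 0 were called in either direction and the median difference was -0.08. Summed intensities of this list were 1040 to 1465 in PN1a and 1022 to 1348 in PN1b, overlapping ranges. Such a sum is set mostly by the brightest genes of the list, and the share of fat cells in the glands was not measured. Slc2a4, the insulin-regulated glucose transporter, gave -0.80 (limma adjusted p = 0.0731), Gpd1, which makes glycerol phosphate for triglyceride, -1.002 (limma adjusted p = 0.109), and Cdo1, which degrades cysteine, 2.11 (limma adjusted p = 0.0977). None of the 19 was at the lowest value in any sample, but some lay below the median intensity of every sample. Cidec ran from 0.09 to 1.71 on the log2 scale in PN1a and from 0.14 to 1.14 in PN1b. Pck1 ran from 1.42 to 2.48 in PN1a and from 0.29 to 2.08 in PN1b. For such dim genes an absence of calls does not show an absence of change.

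Markers of the other cells of the gland moved with part of the samples that set the member values. Summed intensities of 18 luminal epithelial markers were 480.5 and 1246 in PN1a 1 and PN1a 2, 2171 to 2672 in PN1a 3 to 5 and 1968 to 2982 in PN1b, with 0 of 18 called by their brightest probe sets. A dimmer probe set of Krt19, a keratin of luminal cells, was called higher in PN1a (3.74, limma adjusted p = 0.0446). For 14 basal and myoepithelial markers the sums were 834.5 and 876.8 in PN1a 1 and PN1a 2, 1304 to 1806 in PN1a 3 to 5 and 1275 to 2427 in PN1b, and 1 was called lower in PN1a (Trp63, -1.55, limma adjusted p = 0.0262). Endothelial markers summed to 278.8 and 133.3 in PN1a 1 and PN1a 2, 386.5 to 448.5 in PN1a 3 to 5 and 306.8 to 465.3 in PN1b, with 0 of 11 called. For 21 fibroblast and matrix genes PN1a 2 alone stood apart, at 1360 against 4294 to 4491 in the other PN1a samples and 2930 to 5094 in PN1b, with 0 called and a median of 0.09. For macrophage and monocyte markers the order was opposite, with sums of 1101 to 1831 in PN1a against 404.3 to 1073 in PN1b, and 5 of 20 were called higher (Aif1, Tyrobp, Ctss, Cd68 and C1qb). Dimmer probe sets of Cd68 (0.04, limma adjusted p = 0.969) and C1qb (0.10, limma adjusted p = 0.892) were not called. Among milk protein genes 1 of 12 was called lower (Glycam1, -4.16, limma adjusted p = 0.0109), while 9 of the 12 differences were above 0 and the median was 0.39. Among T and B cell markers 1 of 19 was called lower (Pou2af1, -1.86, limma adjusted p = 0.000128). A dimmer probe set of Pou2af1 gave -0.17 and was not called (limma adjusted p = 0.808). Of these calls by brightest probe sets only that of Pou2af1 held within the shared ending or with the ending as a fixed block, where Tyrobp, for example, was 0.85 in place of 1.76. No gene was called among 20 skeletal muscle genes (median 0.01) or 12 housekeeping genes (median -0.03). The part of these cell types in the member differences was not tested.

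Few genes were called in the rest of the pathway. Of all 8251 genes 0.836% were called higher and 1.84% lower, 2.68% in sum. In fatty acid synthesis and elongation, 1 of 18 measured genes was called lower and 0 higher, with a median of 0.15, each gene being counted by its brightest probe set. A dimmer probe set of Elovl6, which elongates palmitate, was also called lower (-0.98, SE 0.22, limma adjusted p = 0.0333), whereas its brightest gave 0.19 (limma adjusted p = 0.646). The called gene was Acss1, a mitochondrial enzyme that makes acetyl-CoA from acetate, and so no part of the cytosolic synthetic route itself. The level lay between 2.27 and 3.96 in PN1a and between 4.67 and 7.0 in PN1b, a difference of -2.87 (SE 0.44, limma adjusted p = 0.00395) that was -1.78 within the shared ending (limma adjusted p = 0.515). Elovl5, which elongates polyunsaturated fatty acids, gave -0.88 with all PN1a below all PN1b samples (limma adjusted p = 0.0580). Idh1, a cytosolic source of NADPH, gave 0.96 (limma adjusted p = 0.0690), and Acsl5, which activates long-chain fatty acids, -0.59 (limma adjusted p = 0.0828).

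Regulators of lipogenesis gave 0 calls among 15 genes, with a median of -0.15. Those with the smallest adjusted p were Nr1h3 (the receptor LXR alpha, -0.79), Mbtps1 (the protease that activates SREBPs, -0.41), Thra (a thyroid hormone receptor, -0.57) and Nfyb (a subunit of the CCAAT-binding factor NF-Y, -0.43), at limma adjusted p values of 0.134 to 0.212. Among 30 partners of Pparg and other adipogenic factors 0 were called and the median was -0.09. Cebpd, an early factor of adipocyte differentiation, lay between 5.25 and 8.16 in PN1a, below the 8.47 to 8.95 of PN1b (-1.82, limma adjusted p = 0.0769), and Gata3, which restrains adipogenesis and also marks luminal cells, gave 1.44 (limma adjusted p = 0.0561).

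Use and storage of fatty acids gave no call either. In triglyceride synthesis and the lipid droplet 0 of 16 genes were called (median -0.05), with G0s2, an inhibitor of adipose triglyceride lipase, at -1.01 (limma adjusted p = 0.0791). For lipolysis and fatty acid uptake the count was 0 of 17 (median -0.19), with Mgll, the lipase that completes triglyceride breakdown, at -0.74 (limma adjusted p = 0.0810) and Apoc1, an apolipoprotein that inhibits lipoprotein lipase, at -1.65 (limma adjusted p = 0.0737). In fatty acid oxidation 0 of 20 were called (median -0.11), and the genes with the smallest adjusted p had negative differences. Acadm, the medium-chain acyl-CoA dehydrogenase, gave -0.94 with the groups apart (limma adjusted p = 0.0502). Cpt1a, which admits long-chain fatty acids to mitochondria, gave -1.05 (limma adjusted p = 0.0561), and Hadhb, a subunit of the trifunctional protein, -0.96 (limma adjusted p = 0.0580).

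Among 21 adipokines, their receptors and insulin signaling genes 1 was called higher and 0 lower, with a median of -0.13. This was Irs2, an adaptor of the insulin receptor, at 4.98 to 7.74 in PN1a and 3.16 to 4.63 in PN1b, a difference of 3.04 (SE 0.46, limma adjusted p = 0.00352) that was 3.57 within the shared ending (limma adjusted p = 0.169). For the alternative complement pathway, to which Cfd belongs, 0 of 9 were called and the median was -0.03.

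**Figure D4:**
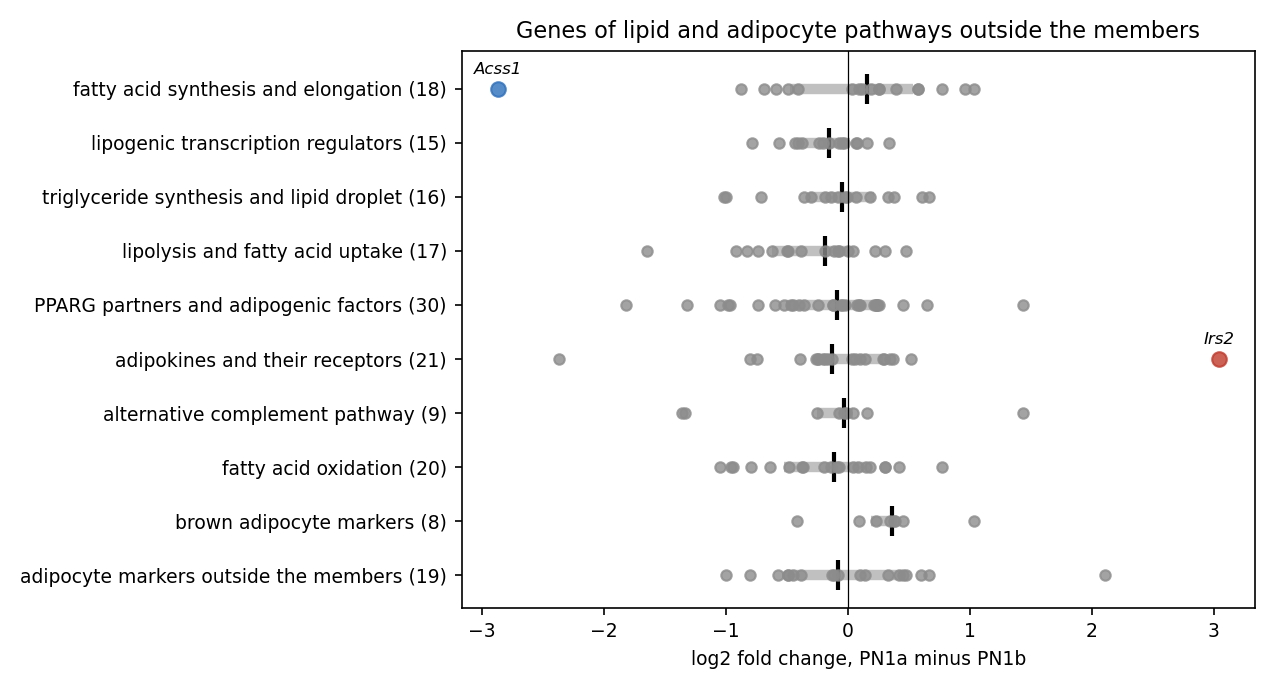
Difference in log2 intensity, PN1a minus PN1b, for genes of 10 lists around the members, 1 point per gene, with the median as a black tick and the range between the quartiles as a grey bar. The number of measured genes stands after each list name. Of all points only Acss1 (blue, lower in PN1a) and Irs2 (red, higher) were called.

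Among the samples, the mean of the 9 genes (each centred on its own mean over the 11 samples) was -0.61 and -0.69 in PN1a 1 and PN1a 2, -0.16 to 0.12 in PN1a 3 to 5 and 0.16 to 0.33 in PN1b. The 8 single-gene probe sets outside the members with the highest Pearson correlation to this mean over 11 samples were those of Map3k8 (r = 0.985), Bcl10 (0.981), Kitl (0.979), Azin1 (0.978), Lama2 (0.977), Zfp954 (0.977), Tjp1 (0.975) and Myo6 (0.972). They share arrays, and the 2 groups and PN1a 1 and PN1a 2 stand apart in that mean, so these values are a description. Map3k8, a kinase, at -1.77 (limma adjusted p = 0.0403) and Kitl, the ligand of the receptor Kit, at -1.47 (limma adjusted p = 0.0342) were called lower in PN1a, and the other 6 were not called.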

How the data were processed

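RNA of 5 PN1a and 6 PN1b samples was hybridized to MG_U74Av2 arrays. With dChip the authors modelled PM-MM differences, applied quantile normalization and deposited a single table that holds a linear intensity for each of 12488 probe sets. Its software version was not found in the paper or labels, and scans were not used. Intensity ran from 1 to 1938 among tested probe sets, 0.817% of values lay at the lowest, and the highest share of equal values between any 2 samples was 1.25%.

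Log2 was taken without a pseudocount, 66 control probe sets were left out and 12422 were tested, of which 10833 carried 1 symbol, 396 several and 1193 none in the array annotation used. Groups were compared by limma 3.58.1 under R 4.3.3, using lmFit and eBayes with no covariate, as the methods name none, and two-sided tests. Genes in lists were given by their brightest probe set. Members and lists were chosen with earlier results of these data known, and the lists are described by counts and medians without a test. Besides every member, the genes named are up to 4 per list with the smallest adjusted p and the 8 most alike in profile. C1qb, the fifth called macrophage gene, Elovl6 and Cidec lie outside this rule and were chosen after their values were seen. Steps were tested on simulated data, and figures drawn with Python 3.11.15 and matplotlib 3.10.9. Alternatives were the methods' t-test, other scalings, filters and eBayes settings, the label ending as a block, and samples left out.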

Additional observations from a re-analysis of the deposited data

How the results depend on the processing

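The 3 member calls held with 16 added to every intensity, quantile normalization repeated, centring on sample medians, a filter at the median of mean log2, eBayes with trend and robust, and the methods' t-test (p under 0.01 and 1.5-fold). With 16 added, the differences were smaller in size, at -1.48 for Lpl, -0.64 for Thrsp and -0.86 for Acly. The count of members called was 0 with the label ending as a fixed block or within the shared ending, 1 (Acly) with it as a random block, 1 by the methods' t-test after Benjamini-Hochberg, and 0 to 3 with each sample left out. Without PN1a 1 and PN1a 2 it was 2 (Lpl and the dimmer Lep probe set), and without PN1a 5 and PN1b 6, a choice made after seeing the data, 2 (Lpl and Acly). Among all probe sets 309 were called. This count was 31 with the fixed block, 162 with the random block, 18 within the shared ending, 167 without PN1a 1 and PN1a 2, 713 by the methods' t-test, 145 by it after Benjamini-Hochberg, and 126 (without PN1b 3) to 559 (without PN1b 5) with 1 sample left out. Calls split into 108 higher and 201 lower, into 155 and 186 after centring, and into 85 and 82 without PN1a 1 and PN1a 2. Over all lists 10 genes were called, against 29 with the filter, 18 with trend and robust, 1 with the fixed block, 5 with the random block, 1 within the shared ending, 35 by the methods' t-test, 5 by it after Benjamini-Hochberg, and 5 to 26 with 1 sample left out. These list counts were added after seeing the data. The filter tests fewer probe sets and the within-ending comparison has fewer samples. The other endings occur only in PN1b, so with the fixed block the group difference rests on the samples of the shared ending. Both settings thus gave the same differences, -1.758 for Lpl, -0.871 for Thrsp and -0.676 for Acly, and are not separate checks of them. For the other changes the cause was not tested.

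Differences changed sign only in members that were not called. With the fixed block and within the shared ending, Scd1 was 0.18 and Lep (98443_at) -0.195. Pparg was 0.105 without PN1a 1 and PN1a 2, and Adipoq was -0.0145 without PN1a 5 and PN1b 6. With 1 sample left out, Fabp4 ranged from -0.38 to 0.144, being above 0 without PN1a 3 (0.144) or PN1b 5 (0.026), and Lep ranged from -0.034 (without PN1b 1) to 0.138 (without PN1b 6). Lpl stayed between -2.09 and -1.46, Thrsp between -1.54 and -1.13 and Acly between -1.10 and -0.92. No paired analysis was possible because the labels give the samples no replicate numbers that both groups share. Low signal limits Fabp4, Pparg and the dimmer Lpl and Lep probe sets most, whose values lay near the lowest of the table. Adipoq was also dim, with intensities of 2.87 to 13.4 against sample medians of 8.57 to 9.51. Like Fabp4 and Pparg, it was left out by the filter at the median of mean log2. Thrsp passed the filter, but its intensities in PN1a 1 and PN1a 2 were 5.74 and 6.68, below those medians.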

Other observations

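Markers of brown adipocytes, a heat-producing fat cell found in small numbers within the mouse mammary fat pad, gave 0 calls among 8 measured genes, and 7 of the 8 differences were above 0, with a median of 0.36. Their summed intensities overlapped, at 35.15 to 47.95 in PN1a and 31.86 to 44.52 in PN1b. These sums over 8 genes are low beside sample medians of 8.57 to 9.51 for a single probe set. The mean of the 8 centred genes was -0.01 to 0.36 in PN1a. PN1b 4 and PN1b 6 lay inside that range, at 0.02 and 0.27, and PN1b 1, 2, 3 and 5 below it, at -0.39 to -0.10. Ucp1, the uncoupling protein that defines this cell type, lay between 1.36 and 2.29 on the log2 scale in PN1a, and between 0 and 2.18 in PN1b. Its difference was 0.45 (limma adjusted p = 0.521), and a dimmer probe set of Ucp1 gave 0.04 (limma adjusted p = 0.972). Elovl3, an elongase raised in brown fat by cold, gave 1.03 (limma adjusted p = 0.148), and Cidea, a lipid droplet protein of brown fat, gave 0.38 (limma adjusted p = 0.380). Dio2, the deiodinase that activates thyroid hormone, gave -0.41 (limma adjusted p = 0.305), the 1 negative difference of the list. Both Ucp1 and Elovl3 reached the lowest value of the table in at least 1 PN1b sample.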
